A study of Mus musculus with 6 samples.

Results

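The Schlafen family was examined in RNA-seq of naive CD8 T cells from mouse lymph nodes. Its 7 members, Slfn1, Slfn2, Slfn3, Slfn4, Slfn5, Slfn8 and Slfn9, were found by gene symbol among the 55450 genes of the table. Of the 7, 6 had enough counts to be tested and Slfn4 did not. Another 4 rows carry a related symbol (Slfn10-ps, Slfn14, Slfn5os and Slfnl1). The groups were 3 libraries of WT mice on the C57BL/6 background and 3 of CD103KO mice, which lack Itgae on both alleles. Itgae encodes CD103, the integrin alpha E chain. In both groups the cells had been taken from lymph node by a sort for naive CD8 T cells negative for Ly6C and for CXCR3, a pair of proteins found on memory-like CD8 T cells. Neither treatment, age nor sex is given in the labels, nor the strain in which the allele was made, and the labels do not state that each library is a separate mouse, so p-values here measure the spread between these libraries.

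Schlafen genes, named after the German word for sleeping, were found as genes expressed in resting lymphocytes and lost on activation. The family is divided by protein size: Slfn1 and Slfn2 are short, Slfn3 and Slfn4 are intermediate, and Slfn5, Slfn8 and Slfn9 are long and carry an added helicase-like part. Forced expression of Slfn1 slows thymocyte growth, T cells with a mutated Slfn2 do not keep their quiescence, and SLFN2 protein binds tRNA and protects it from cleavage under oxidative stress. Several members are also induced by type I interferon, which acts on a promoter sequence called the interferon-stimulated response element.

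All 7 members lie in 1 cluster on chromosome 11 (GRCm38, 82951349 to 83215154), a span of 263.8 kb. The cluster starts 9.80 Mb from the end of Itgae, which is on the same chromosome at 73090583 to 73147446. From that end the order is Slfn5 (82951349 to 82964840, plus strand), Slfn9 (82978390 to 82991830, minus), Slfn8 (83002158 to 83020810, minus), the pseudogene Slfn10-ps (83028130 to 83040042, minus), Slfn2 (83065112 to 83070678, plus), Slfn1 (83116849 to 83122670, plus), Slfn4 (83175186 to 83190216, plus) and Slfn3 (83191330 to 83215154, plus). The long members thus stand together at the end nearer to Itgae, and the short and intermediate ones at the other.

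Promoter sequences are shown with exact matches to a known core and to a run picked after these promoters had been read. Each was found in only part of the 7 members. Inexact matches were not searched for, and whether promoter letters separate the long members from the others was not tested. All 7 members were matched by symbol to RefSeq start sites on GRCm38.p6, and 250 bases before each start were searched on both strands. The core of the interferon-stimulated response element was searched as TTTC, any 2 bases and TTTC, or its reverse complement. It was found in 3 of 7 members, which are the 3 long ones. The same letters were found in 936 of 27025 genes in the whole promoter table (3.46%), and in 13 of 31 interferon-stimulated genes of the list described below (41.9%). In the windows printed here 5′ to 3′ on each gene's own strand, capitals mark the match. The Slfn8 window is chr11:83020811-83020903 (minus strand), the Slfn9 window chr11:82991831-82991920 (minus strand) and the Slfn5 window chr11:82951902-82951984 (plus strand). Those of Slfn8 and Slfn9 lie before the first annotated exon, and that of Slfn5 in an intron of a longer annotated transcript.
Slfn8: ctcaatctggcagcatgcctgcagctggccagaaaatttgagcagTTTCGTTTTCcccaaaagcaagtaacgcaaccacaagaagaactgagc
Slfn9: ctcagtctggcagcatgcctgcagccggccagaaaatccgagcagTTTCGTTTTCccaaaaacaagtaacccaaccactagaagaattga
Slfn5: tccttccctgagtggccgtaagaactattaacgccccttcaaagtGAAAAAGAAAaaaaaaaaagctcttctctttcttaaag
Over the first 55 bases of these windows, match included, Slfn8 and Slfn9 were identical at 51, so their matches are copies of one sequence and do not count as independent. Slfn5 was identical to Slfn8 at 10 of 55 bases, and its match lies on the opposite strand beside a run of A.

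The other 4 members, short and intermediate, had no exact match to that core in the window. Each held the run ACTTCCTGG (reverse CCAGGAAGT) instead, a run picked after the promoters had been read. It was found in 224 of 27025 genes (0.829%), and in 1 of 31 interferon-stimulated genes (3.23%). The windows are chr11:83065012-83065110 for Slfn2, chr11:83116701-83116799 for Slfn1, chr11:83175068-83175166 for Slfn4 and chr11:83191243-83191329 for Slfn3, all on the plus strand of GRCm38.p6 and before the first annotated exon, with the run in capitals.
Slfn2: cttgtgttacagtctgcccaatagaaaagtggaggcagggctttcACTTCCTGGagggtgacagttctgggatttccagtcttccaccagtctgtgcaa
Slfn1: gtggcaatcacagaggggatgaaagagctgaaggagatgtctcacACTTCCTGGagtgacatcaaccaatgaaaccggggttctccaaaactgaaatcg
Slfn4: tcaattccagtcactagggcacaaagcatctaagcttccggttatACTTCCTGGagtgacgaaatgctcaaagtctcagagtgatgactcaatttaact
Slfn3: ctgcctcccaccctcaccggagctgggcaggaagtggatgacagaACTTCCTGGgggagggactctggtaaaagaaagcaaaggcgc
The run ends 47 bases before the start site in Slfn2, 66 in Slfn1, 65 in Slfn4 and 34 in Slfn3. Slfn1 and Slfn4 shared 15 bases there without a break (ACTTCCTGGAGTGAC), while over the first 54 bases of the windows the identity of any pair was 18 to 22 bases. A match is a description of the letters and shows no binding of a factor.

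Depth was 68292475 to 94347034 expected counts per library, so that 1 count corresponds to 0.0105 to 0.0147 CPM, a library's counts scaled to a common total. The targeted gene Itgae stood at 491, 495 and 460 CPM in the WT libraries against 67.9, 67.9 and 61.1 CPM in those labelled CD103KO. Cd8a averaged 1452 ± 13.4 CPM (WT, SD, n = 3) against 1479 ± 24.9 CPM (CD103KO, SD, n = 3). Ccr7, a homing receptor gene of naive T cells, averaged 486 CPM in WT and 443 CPM in CD103KO. Transcripts for the proteins of the sort were present in both groups. Cxcr3 averaged 4.71 and 6.89 CPM, with overlap. Ly6c2 averaged 22.8 and 35.8 CPM (adjusted p = 0.4305, edgeR) and Ly6c1 0.252 and 0.800 CPM (adjusted p = 0.304, edgeR). Both were higher in CD103KO without overlap, as were 6.82% of all tested genes. Xist, the X-inactivation RNA, was at 66.9 and 79.7 CPM in WT replicates 1 and 2 and at no more than 0.0272 CPM in WT replicate 3 and the CD103KO libraries. Ddx3y, a gene of the Y chromosome, had 0 counts in WT replicates 1 and 2, 56.2 CPM in WT replicate 3 and 47.8 to 54.5 CPM in the CD103KO libraries. WT replicate 3 therefore stands apart from the other WT libraries, and the split runs partly with genotype, since both libraries with Xist reads are WT. Results are given below with a term for Xist reads, under which the CD103KO libraries are set against that library alone. Over all 13470 tested genes, edgeR's quasi-likelihood test called 30 genes at an adjusted p of 0.05 (0.223%). Leaving out WT replicate 3 gave 52 calls, leaving out CD103KO replicate 1 gave 59, and leaving out CD103KO replicate 2 gave 19.

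The short members were the most abundant per length. Slfn2 was at 208 ± 9.45 CPM per kilobase of merged exon (SD over the 6 libraries) and Slfn1 at 131 ± 12.4 (SD, 6 libraries). These levels were above those of 98.6% and 97.8% of tested genes on the same scale. The long Slfn8 followed at 42.2 CPM per kilobase (37.2 to 46.9) and Slfn5 at 28.7 (21.8 to 35.9), at the 92.5th and 88.4th percentile. Slfn9, the third long member, was far lower at 2.34 CPM per kilobase (2.15 to 2.64), below the pseudogene Slfn10-ps at 3.89 (2.97 to 4.75). Slfn3 was lowest of the tested members at 0.945 CPM per kilobase (0.811 to 1.12). No neighbours in the order Slfn2, Slfn1, Slfn8, Slfn5, Slfn10-ps, Slfn9, Slfn3 overlapped in their ranges over the 6 libraries. Slfn4, known from interferon-treated macrophages, had 0, 4 and 0 counts in WT and 0, 0 and 1 in CD103KO. The floor of 3 counts is 0.0313 to 0.0440 CPM per library, and only WT replicate 2 was above it, so no difference was detectable for Slfn4 at this depth. Of the 15 myeloid markers 9 were tested, and edgeR called 0, with 1 at an unadjusted p under 0.05. That was Cybb, an oxidase subunit of phagocytes, at 0.304 ± 0.189 CPM for WT and 0.936 ± 0.155 CPM for CD103KO (SD, n = 3 each, adjusted p = 0.280, edgeR), whose groups did not overlap. Fcgr3 did not overlap either, but was lower in CD103KO (means of 0.974 and 0.785 CPM). Of the 9 log2 fold changes, 4 were positive and 5 negative, with a median of -0.07. Cd14 was at 0 in every library, S100a8 had no reads in WT, and the whole list summed to 5.49 to 8.92 CPM over WT and 6.84 to 8.32 CPM over CD103KO. Slfn14, known from platelets, had 2 counts over all libraries. Together the 7 members summed to 930 ± 67.2 CPM for WT and to 992 ± 71.5 CPM for CD103KO (SD, n = 3 each).

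**Figure D1:**
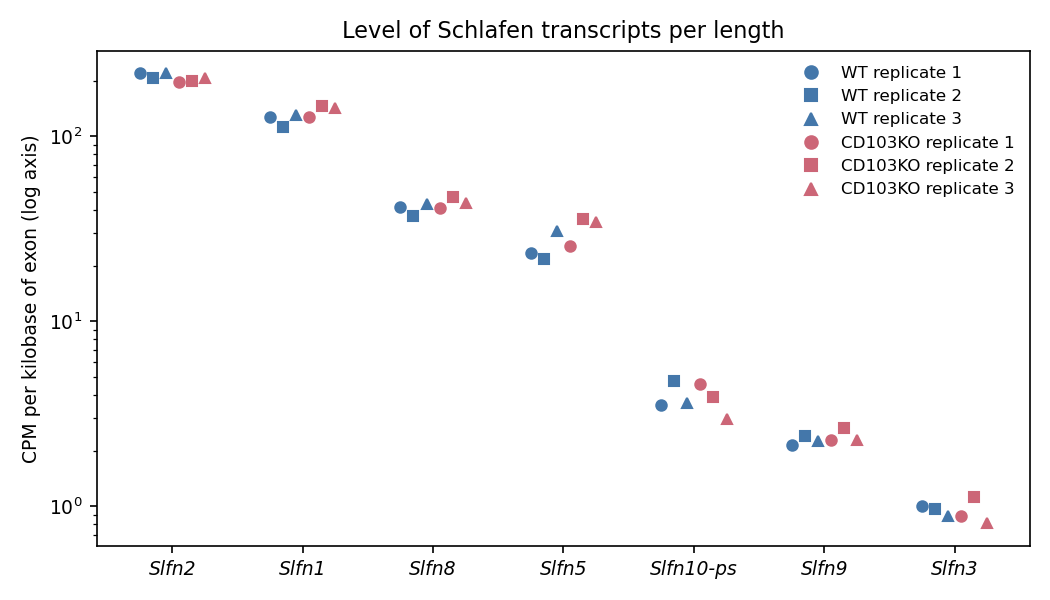
Level of the tested Schlafen rows in CPM per kilobase of merged exon (log axis), 1 point per library, with color for genotype and shape for replicate number. Slfn2 and Slfn1 lie between 112 and 219, Slfn8 and Slfn5 between 21.8 and 46.9, and the other rows below 5.

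Transcripts of Slfn8, Slfn9 and Slfn10-ps share sequence, and their counts are partly estimates. Of all 50-base words in Slfn8 transcripts, 14.6% also occur in another Schlafen gene, as do 11.2% of those of Slfn9 and 19.7% of those of Slfn10-ps. The deposited counts were not whole in 6 of 6 libraries for Slfn9, Slfn10-ps and Slfn3, in 5 for Slfn8 and in 4 for Slfn5. Slfn3 shared 7.39% of its words with Slfn4 and 9.77% with genes outside the family. The long Slfn5 shared 0.0% of its words with other Schlafen genes, and 96.6% occur in that gene alone, as do 99.4% of those of Slfn1 and 95.7% of those of Slfn2. The counts of Slfn1 and Slfn2 were not whole in 0 and 1 libraries. Slfn5os, a noncoding gene annotated on the strand opposite to Slfn5, had 0 counts in 5 libraries and 4 counts in CD103KO replicate 3. Whether the counting used strand is not given in the sources used here.

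None of the 6 tested members passed when CD103KO was compared with WT. EdgeR called 0 of 6 at an adjusted p of 0.05, against 0.223% of all tested genes (0.141% higher and 0.0817% lower in CD103KO). DESeq2 called 0 of 6 members against 0.822% of the genes it tested, and limma-voom called 0 of 6 against 29 of 13470 genes. At an unadjusted p under 0.05 there were 2 of 6, Slfn1 (higher) and Slfn2 (lower), against 8.73% of all tested genes (4.53% higher and 4.2% lower). With DESeq2 there was 1, Slfn1, among 1096 genes in all with an unadjusted p under 0.05. Groups did not overlap for 1 of 6, Slfn2, which was lower in CD103KO, where 14.2% of all tested genes had groups that do not overlap (6.82% higher and 7.36% lower). The log2 fold changes were positive for 4 tested members and negative for 2. In bulk samples, fewer cells of a type and less RNA per cell cannot be told apart.

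Slfn2, the quiescence gene of the family, measured 364, 344 and 364 CPM in the WT libraries and 326, 333 and 343 CPM in the CD103KO ones, in the order of replicates 1, 2 and 3 kept from here on. Its groups did not overlap, but only just, with WT replicate 2 at 343.651 and CD103KO replicate 3 at 343.417 CPM. The log2 fold change was -0.10 (SE 0.04, adjusted p = 0.541, edgeR), and the 95% interval of the fold ran from 0.877 to 0.997.

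Slfn1, the other short member, measured 237, 209 and 243 CPM in the WT libraries and 238, 273 and 266 CPM in the CD103KO ones. The groups overlapped, since CD103KO replicate 1 lay between WT replicates 1 and 3. The log2 fold change was 0.17 (SE 0.07, adjusted p = 0.518, edgeR). With the term for Xist reads it was 0.09 (SE 0.09), and it ran from 0.11 without WT replicate 2 to 0.23 without CD103KO replicate 1.

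Slfn5, a long member of the nucleus linked to the interferon response, measured 149, 138 and 195 CPM in the WT libraries and 162, 227 and 218 CPM in the CD103KO ones. WT replicate 3 lay above CD103KO replicate 1 and apart from both other WT libraries. Its log2 fold change of 0.33 was farther from 0 than that of any other tested member, but it did not pass (SE 0.15, 95% interval -0.006 to 0.67, adjusted p = 0.581, edgeR). Leaving out WT replicate 3 gave 0.50, leaving out CD103KO replicate 1 gave 0.47, and the term for Xist reads gave 0.05 (SE 0.16).

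Slfn8, a long member, measured 170, 152 and 175 CPM in the WT libraries and 167, 192 and 178 CPM in the CD103KO ones, groups that overlap. The log2 fold change was 0.11 (SE 0.07, adjusted p = 0.690, edgeR), and 0.03 with the term for Xist reads, 0.05 without WT replicate 2 and 0.05 without CD103KO replicate 2. Slfn9, with which it shares sequence, measured 12.8, 14.4 and 13.4 CPM in the WT libraries and 13.6, 15.7 and 13.6 CPM in the CD103KO ones, again overlapping. Its log2 fold change was 0.08 (SE 0.08, adjusted p = 0.802, edgeR), and 0.0042 without CD103KO replicate 2. The pseudogene Slfn10-ps spanned 12.8 to 17.2 CPM over WT and 10.8 to 16.6 CPM over CD103KO. When these 3 rows were summed to take up reads that could have been given to the wrong copy, the sum averaged 194 ± 9.13 CPM for WT and 207 ± 12.7 CPM for CD103KO (SD, n = 3 each), and the log2 fold change was 0.09 (SE 0.05).

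Slfn3, the intermediate member, measured 3.41, 3.30 and 3.02 CPM in the WT libraries and 3.04, 3.82 and 2.76 CPM in the CD103KO ones. The CD103KO libraries included both the highest and the lowest value. The fitted log2 difference, -0.02 (SE 0.14, edgeR, adjusted p = 0.983), had a 95% interval of -0.33 to 0.30 and changed sign with single libraries left out.

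**Figure D2:**
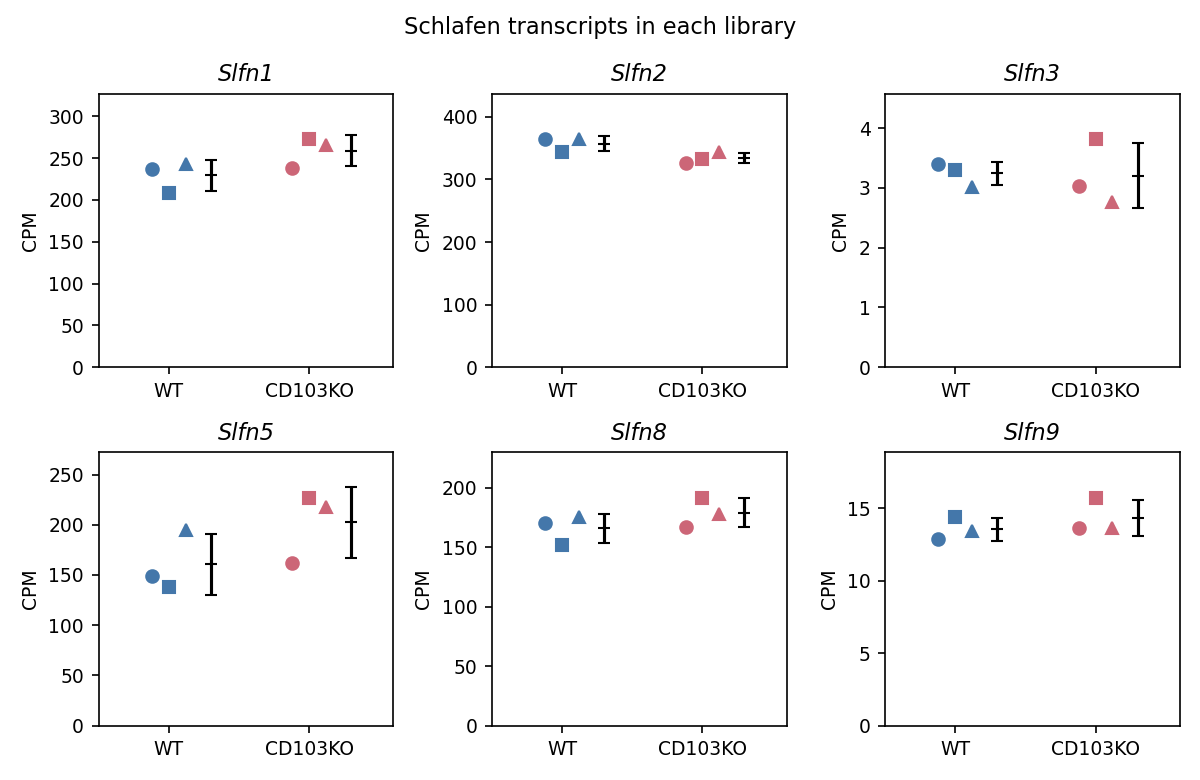
CPM of the 6 tested members in each library (y axis from 0, own scale per gene), with circles, squares and triangles for replicates 1, 2 and 3, and the mean ± SD (n = 3) in black. Slfn2 shows WT at 344 to 364 and CD103KO at 326 to 343, and the groups of the other 5 members overlap.

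**Figure D3:**
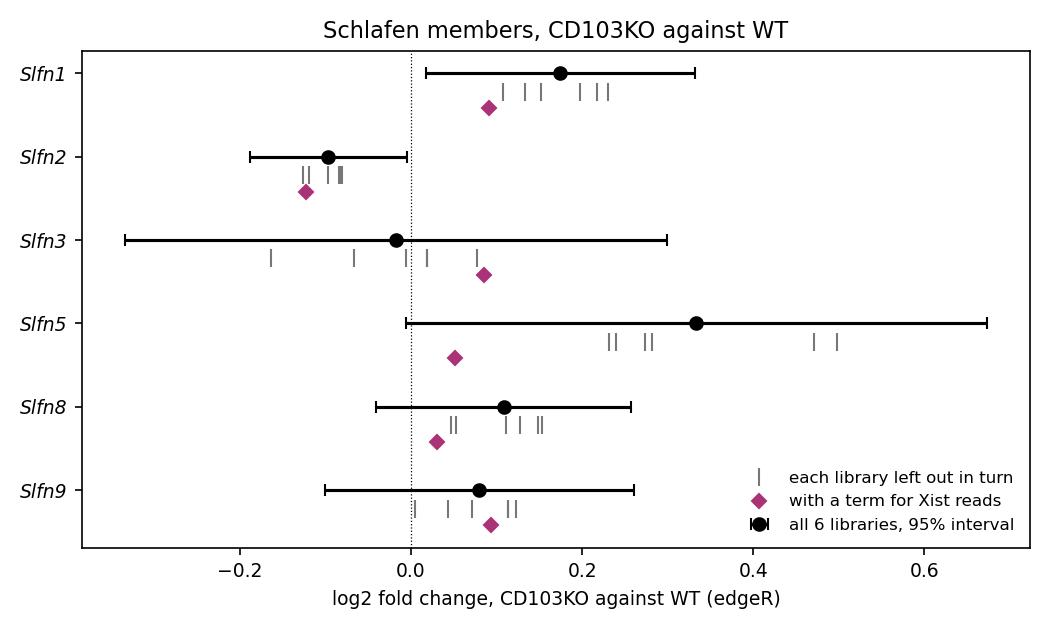
Log2 fold change of each tested member, CD103KO against WT (edgeR), with its 95% interval (black), the values with each library left out (gray bars) and the value with a term for Xist reads (diamond). Slfn5 moves from 0.33 to 0.05 with that term, and Slfn2 from -0.10 to -0.12.

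Slfn1, Slfn5 and Slfn8 varied together from library to library, and with the interferon-stimulated genes. The interferon-stimulated list holds 40 genes and no Schlafen gene, and its level is the mean of log2 CPM relative to the 6 libraries. That level measured -0.28, -0.47 and 0.09 for the WT libraries and -0.05, 0.38 and 0.32 for the CD103KO ones. WT replicate 3 lay above CD103KO replicate 1, so the groups overlap. Ordered from low to high, the libraries were WT replicate 2, WT replicate 1, CD103KO replicate 1, WT replicate 3, CD103KO replicate 3 and CD103KO replicate 2, and Slfn1 and Slfn5 gave the same order.

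Over the 6 libraries, Slfn5 and the list level had a Pearson r of 0.984 (two-sided exact permutation p = 0.00278, the smallest 6 libraries can give, 0.0083 after Benjamini-Hochberg adjustment over the 6 members) and a Spearman rho of 1.0 (exact permutation p = 0.00278, adjusted 0.0083). For Slfn1, r was 0.957 and rho 1.0, with the same exact permutation p-values. For Slfn8, r was 0.902 (exact permutation p = 0.0139, adjusted 0.0278) and rho 0.943 (exact permutation p = 0.0167, adjusted 0.0333). Without WT replicate 2 and CD103KO replicate 2, the libraries farthest from the median of the list level, r was 0.973 for Slfn5, 0.893 for Slfn1 and 0.770 for Slfn8. With the group means removed it was 0.989, 0.916 and 0.875. Against the 35 list genes off chromosome 11 it was 0.991, 0.954 and 0.908 in the same order. Among 10721 other genes with at least 1 CPM, 0.0933% had a higher r with the list than Slfn5, 0.466% than Slfn1 and 2.18% than Slfn8. Over the 4 libraries without Xist reads it was 0.972 for Slfn5, 0.985 for Slfn1 and 0.881 for Slfn8, and the 2 libraries with such reads give no r. The correlation with the list was chosen after the values had been seen, which the adjustment over the 6 members does not cover. The permutation p-values treat the 6 libraries as exchangeable, though they differ in genotype and in Xist reads. The r with the group means removed was not tested.

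For the other tested members r over the 6 libraries did not pass, and it moved with the libraries used. Slfn2 had an r of -0.276 (exact permutation p = 0.547, adjusted 0.657) and a rho of -0.429 (exact permutation p = 0.419), Slfn3 an r of -0.082 (exact permutation p = 0.844) and Slfn9 an r of 0.373 (exact permutation p = 0.447). With the group means removed, r was 0.736 for Slfn2, -0.023 for Slfn3 and 0.107 for Slfn9. Without the 2 libraries farthest from the median it was -0.254, -0.976 and 0.774 in the same order, and over the 4 libraries without Xist reads 0.018, 0.38 and 0.639. Per unit of list level on the log2 scale, Slfn5 changed by 0.883, Slfn1 by 0.396 and Slfn8 by 0.295. By exact match, Slfn1 lacks the response element core in the window printed above. Slfn9, whose r moved between 0.107 and 0.774, holds it. Inexact matches were not searched for, and any relation between the letters and the r values was not tested.

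**Figure D4:**
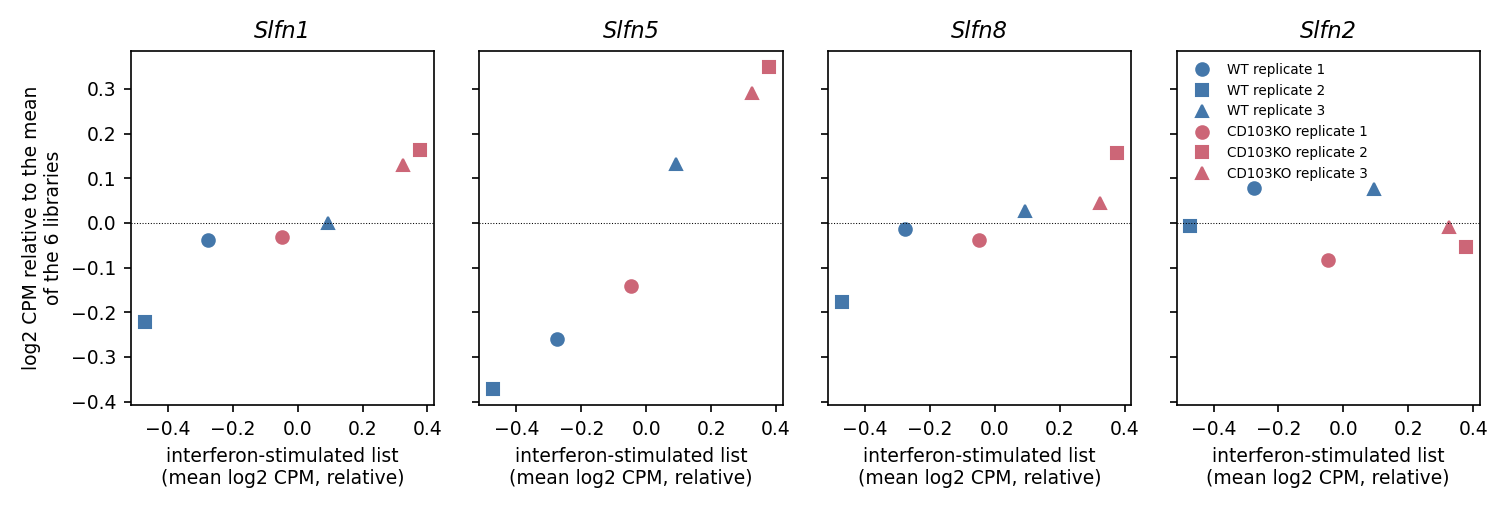
Log2 CPM of Slfn1, Slfn5, Slfn8 and Slfn2 relative to each gene's mean over the 6 libraries (y axis), against the mean relative log2 CPM of 40 interferon-stimulated genes (x axis), 1 point per library. Slfn1, Slfn5 and Slfn8 climb with the list (r of 0.957, 0.984 and 0.902), and Slfn2 has an r of -0.276 over all libraries and of 0.736 with the group means removed.

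Of the 40 interferon-stimulated genes, all tested, edgeR called 1, Xaf1, which was higher in CD103KO (25.6 ± 5.03 and 155 ± 23.3 CPM, SD, n = 3 each, log2 fold change 2.60). Of these genes, 35 lie off chromosome 11, which carries Itgae, and whether position plays a part in the changes was not tested. The median log2 fold change of the list was 0.28 and 38 of 40 were positive. Over all 13470 tested genes the median was -0.0025 and 6595 were positive. The list level was lowest in the WT libraries with Xist reads (-0.28 and -0.47). In WT replicate 3 it was 0.09, above CD103KO replicate 1 at -0.05. Whether the shift of the list follows genotype or Xist reads was not tested. An unadjusted p under 0.05 was found for 16 of the 40, against 8.73% of all tested genes. That is the share to set beside such counts in every list here. The median of the 6 tested Schlafen members was 0.09. Of 15 genes of the interferon pathway itself, among them the kinases Jak1 and Tyk2 and the inhibitors Usp18 and Socs1, edgeR called 0, with 3 at an unadjusted p under 0.05. The 2 of smallest p were Irf7, a factor that amplifies the response, at 65.2 ± 15.6 and 89.1 ± 11.4 CPM (adjusted p = 0.461, edgeR, n = 3 each), and Socs1, a feedback inhibitor, at 21.1 ± 2.86 and 17.9 ± 1.18 CPM (adjusted p = 0.544, edgeR).

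Markers of other cells also differed between the libraries, and their part in the Slfn1, Slfn5 and Slfn8 values was not tested. All 10 B cell markers had positive log2 fold changes (median 1.89). EdgeR called 3 of the 10 (Fcer2a, Cd79a and Ms4a1), against 0.223% of all tested genes. An unadjusted p under 0.05 was found for 8, against 8.73% of all tested genes. Groups did not overlap for 8, all higher in CD103KO, against 6.82% of all tested genes. The list summed to 26.0 to 29.3 CPM in WT and 32.4 to 38.4 CPM in CD103KO. Its largest part was Cd79b, at means of 25.3 CPM for WT and 25.5 CPM for CD103KO. The defining B cell marker Ms4a1 averaged 0.377 CPM for WT and 1.83 CPM for CD103KO. All 7 markers of memory-like CD8 T cells had positive log2 fold changes with 0 called by edgeR and 3 at an unadjusted p under 0.05, and they summed to 315 to 350 CPM in WT and 371 to 419 CPM in CD103KO. All 5 naive T cell markers had negative log2 fold changes, with 0 called by edgeR and 2 (Ccr7 and Il7r, both without overlap of the groups) at an unadjusted p under 0.05, and they summed to 4344 to 4671 CPM over WT and 4267 to 4420 CPM over CD103KO. Of the other lists, CD4 T cell markers summed to 15.7 to 16.7 and 18.4 to 20.2 CPM, NK cell markers to 4.16 to 5.89 and 3.90 to 7.20 CPM, dendritic cell markers to 1.36 to 2.26 and 1.19 to 1.73 CPM, and CD8 T cell markers to 6186 to 6538 and 6238 to 6485 CPM, with 0 called by edgeR in each and 1, 0, 0 and 1 at an unadjusted p under 0.05. The largest part of the CD4 T cell sum was Ikzf2, at means of 9.95 CPM for WT and 12.8 CPM for CD103KO. In that list 4 log2 fold changes were positive and 1 was negative, that of Cd4 (means of 0.348 and 0.181 CPM). Siglech, which marks plasmacytoid dendritic cells, was at 0 in every library.

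Of 30 other genes that hold T cells in quiescence, edgeR called 0, with a median log2 fold change of -0.05. An unadjusted p under 0.05 was found for 9, 2 higher and 7 lower, against 8.73% of all tested genes. Tsc22d3, a glucocorticoid-induced inhibitor of activation, averaged 379 ± 23.8 CPM for WT and 304 ± 24.9 CPM for CD103KO (SD, n = 3 each, log2 fold change -0.32, adjusted p = 0.170, edgeR), and Ccr7 at 486 ± 5.96 and 443 ± 6.37 CPM (log2 fold change -0.14, adjusted p = 0.303, edgeR). Of 13 tested genes for tRNA cleavage and repair, the RNA on which SLFN2 protein acts, edgeR called 0, with 1 at an unadjusted p under 0.05. That was Clp1, an RNA kinase, at 37.9 ± 2.08 and 34.1 ± 1.15 CPM (adjusted p = 0.506, edgeR), followed by the tRNA methyltransferase gene Nsun2 at 165 ± 1.46 and 173 ± 6.27 CPM (adjusted p = 0.689, edgeR).

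The genes around the cluster were examined in the same way. From 1 Mb before Slfn5 to 1 Mb after Slfn3, 86 further genes are annotated and 26 were tested, Slfn10-ps among them. EdgeR called 0 of the 26, and 2 had an unadjusted p under 0.05, against 8.73% of all tested genes. These were Synrg, a gene of clathrin-coated vesicles, at means of 130 and 140 CPM (log2 fold change 0.11, SE 0.04, adjusted p = 0.497, edgeR), and Acaca, which starts fatty acid synthesis, at 64.8 ± 3.53 and 70.8 ± 3.04 CPM (log2 fold change 0.13, adjusted p = 0.538, edgeR). The median over the 26 was 0.01, and 14 were positive and 12 negative.

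**Figure D5:**
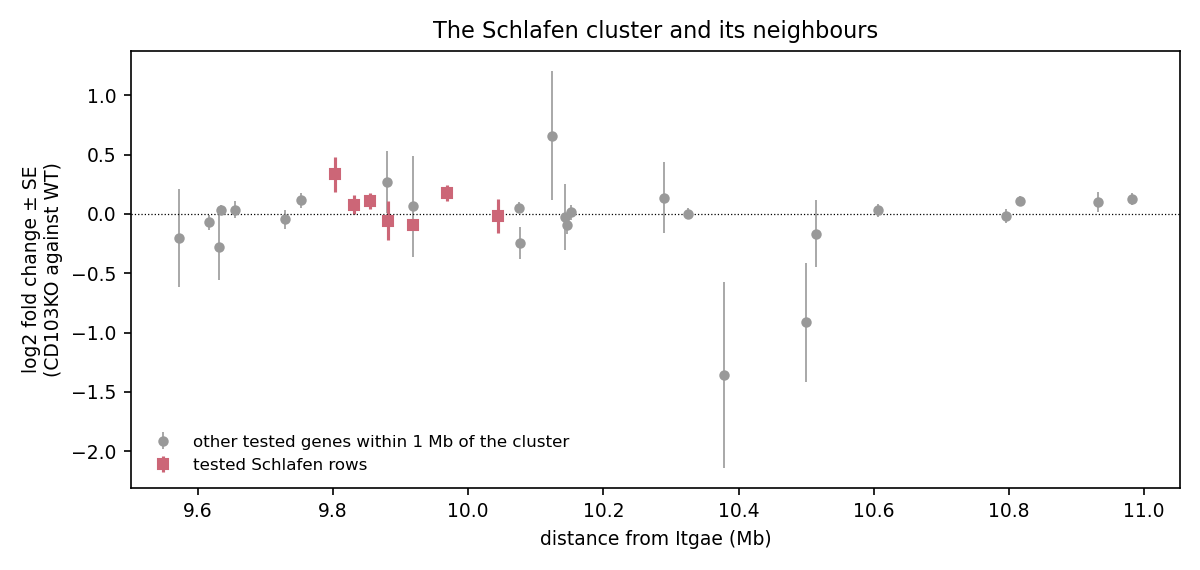
Log2 fold change ± SE (CD103KO against WT, edgeR) of the tested Schlafen rows (squares) and the other tested genes within 1 Mb of the cluster (circles), by distance from Itgae in Mb. None was called, and the tested Schlafen rows lie between -0.10 and 0.33.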

How the data were processed

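Per the labels' protocols, a column kit gave total RNA, from which a stranded ligation kit for mRNA made the libraries. The submitters' processing notes name RSEM, STAR 2.7.0f, cutadapt 1.18 and bcl2fastq 2.20, with the builds GRCm38 and mm10. CPM values were computed with edgeR's cpm function from TMM-scaled library sizes. The authors deposited expected counts per gene, not normalized, of which 6.48% were not whole. Neither the version of RSEM nor how it treated reads with several alignments is stated there. All 55450 gene identifiers matched GENCODE M21 (GRCm38), which gave coordinates and merged exon lengths.

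Counts were rounded and fitted with edgeR 4.0.16 (R 4.3.3): filterByExpr (minimum count 10), TMM, quasi-likelihood F test, Benjamini-Hochberg adjustment at 0.05 over 13470 genes. SE is the log2 fold change over the square root of F. The fit was tested on simulated data. DESeq2 1.42.0 and limma-voom (limma 3.58.1) were alternatives, with other normalization, filters, unrounded counts, a replicate block, a term for Xist reads (above 1 CPM) and libraries left out. Correlations with the interferon-stimulated list were added after seeing the data. Shared sequence was counted in words of 50 bases over GENCODE transcripts. The 95% intervals of the fold changes use this SE and so include the spread between libraries. Floors (3 counts) cover counting error only. Within groups, the chi-square of library pairs over its degrees of freedom was 12.7 to 26.4, above sampling noise, so none was merged.

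The members and lists were chosen with earlier results of these data known. Genes named were the members, other rows with a Slfn symbol, Itgae, Xist, Ddx3y, defining markers, for each gene list other than markers up to 3 called genes or, with none called, the 2 of smallest p, and for each member of at least 1 CPM the 2 genes of highest r over the 6 libraries. Fcer2a, Cd79a, Cd79b, Ikzf2, Cd14, Cybb, Fcgr3, Il7r, Jak1, Tyk2, Usp18, Ly6c1 and Ly6c2 were named outside this rule, after their values were seen.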

Additional observations from a re-analysis of the deposited data

How the results depend on the processing

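No tested member was called under any of the alternatives run, and Slfn1, Slfn2, Slfn5, Slfn8 and Slfn9 kept the sign of their log2 fold change in each. Adjusted p-values (edgeR, DESeq2 or limma-voom) were at least 0.192 for Slfn5, 0.202 for Slfn1, 0.347 for Slfn8, 0.451 for Slfn2 and 0.597 for Slfn9. Slfn3 reversed to 0.0851 with a term for Xist reads and to 0.0857 in libraries without them, and ran from -0.1635 to 0.0766 with each library left out in turn (0.0182 without WT replicate 1 and 0.0188 without CD103KO replicate 1), and the cause was not tested. With each library left out, Slfn5 ran from 0.23 to 0.50, Slfn1 from 0.11 to 0.23, Slfn8 from 0.05 to 0.15, Slfn9 from 0.0042 to 0.12 and Slfn2 from -0.13 to -0.08. Over all genes, calls were 112 with no filter, 128 with DESeq2, 15 with the Xist term and 13 in libraries without Xist reads, and 19 to 59 with each library left out. The correlation of Slfn2 with the interferon-stimulated list was 0.736 once group means were removed and 0.018 in libraries without Xist reads, against -0.276 before, and that of Slfn3 was 0.38 in those libraries, against -0.082. Per length of the longest transcript in place of merged exons, Slfn3 was at 1.14 CPM per kilobase. With the replicate number as a block, 24 genes and 0 members were called. Same-numbered libraries did not deviate together (r of -0.199, -0.005 and -0.03 across genes), and those of unlike number had an r of -0.151 to 0.176. With 3 libraries per group this check cannot exclude that the numbers pair the samples. Depth limits Slfn4, with 5 counts in all.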

Other observations

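Of the 15 ratios between tested members, 12 overlapped between the groups and 3 did not. Slfn2 made up 36.6% to 40.0% of the summed CPM of the 7 members in the WT libraries and 31.9% to 35.9% in the CD103KO ones. The share of Slfn1 was 24.3% to 25.3% in WT and 26.1% to 26.2% in CD103KO. The log2 ratio of Slfn2 to Slfn1, which does not depend on library scaling, was 0.64 ± 0.07 (SD, n = 3) in WT and 0.37 ± 0.08 (SD, n = 3) in CD103KO, and its groups did not overlap. The ratio of Slfn8 to Slfn2 was also higher in each CD103KO library than in any WT library (log2 means of -1.11 and -0.90), and that of Slfn8 to Slfn1 was lower (log2 means of -0.47 and -0.53). Among the ratios of all other tested genes to Slfn2, 26.4% were higher in each CD103KO library in the same way, since Slfn2 itself was lower. These ratios were examined after the values had been seen and were not tested. For ratios that do not include Slfn2, no share over all genes was computed.

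Within the family, log2 CPM over the 6 libraries had an r of 0.956 between Slfn1 and Slfn8, 0.927 between Slfn1 and Slfn5 and 0.888 between Slfn5 and Slfn8. Slfn2 had an r of -0.197 with Slfn1, which was 0.858 once the group means were removed. These are descriptions over libraries that share their preparation and scaling. Slfn9 had an r of 0.349 with Slfn8 and 0.609 with Slfn3.

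Genes outside the family with the most similar pattern over the 6 libraries, among 10761 with at least 1 CPM, were Gm12250 and Morc3 for Slfn1 (r of 0.988 each) and Cnnm3 and Gm6030 for Slfn2 (r of 1.0 and 0.997). For Slfn5 they were Pml (0.996) and Scamp3 (0.994), and for Slfn8 Mitd1 (0.983) and Rtp4 (0.982). For Slfn3 they were Gm7143 (0.992) and Otulin (0.977), and for Slfn9 Fhl3 and Ddx23 (0.987 each). With 6 libraries such values are frequent: 263 genes had an r above 0.9 with Slfn1 (2.44%), 236 with Slfn5 (2.19%), 119 with Slfn8 (1.11%) and 89 with Slfn2 (0.827%).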
